A study of Mus musculus with 8 samples.

Results

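The MCM2-7 replicative helicase genes (Mcm2, Mcm3, Mcm4, Mcm5, Mcm6 and Mcm7) encode the 6 subunits of the ring that unwinds DNA ahead of the replication fork. They were chosen by gene symbol, and all 6 were present among the 19909 genes measured. Bulk RNA sequencing was done on haematopoietic stem cells (HSCs) purified from mouse bone marrow at steady state, and the study asked how HSCs that engage autophagy differ from those that do not as mice age. All groups carried the same genotype, Gfplc3/Gfplc3, a reporter that joins green fluorescent protein (GFP) to LC3, an autophagosome protein consumed during autophagy. The AThi libraries (n = 3) came from the 33% of HSCs with the lowest GFP signal in mice older than 24 months. The ATlo libraries (n = 3) came from the 33% with the highest GFP signal in the same old mice. The young libraries (n = 2) came from HSCs of mice aged 8 to 12 weeks that were not fractionated by GFP, so in a comparison with young the age and the GFP gate cannot be told apart. Each old mouse gave 1 AThi and 1 ATlo library, which share a tag (O10, O11 or O12), and the young libraries are tagged D11 and D12.

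The 6 subunits form a closed ring that is loaded around DNA as a pair of rings before S phase, by the origin recognition complex with CDC6 and CDT1. The kinase CDC7, CDC45, the GINS complex and further factors then turn the loaded ring into the active helicase that travels with DNA polymerase epsilon. MCM mRNAs are low in resting cells and are induced by E2F transcription factors towards S phase. Most HSCs in the adult marrow are quiescent, and low MCM expression with replication stress has been described for HSCs of old mice.

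The 6 genes lie on 5 chromosomes of the mouse build GRCm38. Mcm3 (ENSMUSG00000041859, chr1:20802968-20820312) and Mcm6 (ENSMUSG00000026355, chr1:128331590-128359664) are both on the minus strand of chromosome 1. Mcm7 (ENSMUSG00000029730, chr5:138164583-138172422), Mcm2 (ENSMUSG00000002870, chr6:88883474-88898780) and Mcm4 (ENSMUSG00000022673, chr16:15623897-15637400) are also on the minus strand, and Mcm5 (ENSMUSG00000005410, chr8:75109569-75128439) is on the plus strand. All are protein-coding, with 15 to 17 exons in the longest coding transcript. Mcm4 is head to head with Prkdc, the DNA-dependent protein kinase gene, their starts being 466 bases apart. Mcm7 overlaps Ap4m1 by 421 bases at its start and Cops6 by 64 bases at its end, both on the other strand. No source used here gives the strand setting of the read counting, so reads within those 2 overlaps cannot be assigned with certainty. The microRNA genes Mir25, Mir93 and Mir106b lie within Mcm7 on its strand and were not analysed here.

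Stretches of the members' promoters are shown with the letters known to bind E2F proteins. Any part of these letters in the levels of the 6 genes was not tested. RefSeq promoters (GRCm38.p6, 250 bases before to 50 bases after a start) were matched for 5 of the 6 members: Mcm2, Mcm3, Mcm5, Mcm6 and Mcm7, the last with 2 promoters. They were searched on both strands for TTTGGCGC, TTTCGCGC, TTTCCCGC and TTTGCCGC, and overlapping matches were merged into 1 site. At least 1 of these 8-letter words was present in 2.26% of all 32851 promoters of the same length. In the stretches below, written 5′ to 3′ on the gene's own strand, capitals mark the E2F letters, and in Mcm2 they mark TTTGAA, the letters of the cell cycle homology region.
Mcm5, chr8:75109345-75109378, plus strand: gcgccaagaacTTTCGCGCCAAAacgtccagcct
Mcm6, chr1:128359734-128359826, minus strand: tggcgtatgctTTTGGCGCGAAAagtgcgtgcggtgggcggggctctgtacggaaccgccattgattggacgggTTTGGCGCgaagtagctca
Mcm3, chr1:20820263-20820292, minus strand: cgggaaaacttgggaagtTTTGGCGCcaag
Mcm7, chr5:138172030-138172059, minus strand: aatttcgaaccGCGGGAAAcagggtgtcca
Mcm7, chr5:138171849-138171878, minus strand: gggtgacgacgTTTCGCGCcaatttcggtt
Mcm2, chr6:88898834-88898861, minus strand: gggctcagcctTTTGAAagctgtgggcg

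The E2F letters occurred at 2 sites in Mcm3, at 2 in Mcm6, at 2 in 1 of the Mcm7 promoters and at 1 in Mcm5, so 4 of the 5 matched members held them. In Mcm5 and in the upstream site of Mcm6, 2 words on opposite strands overlapped, which gives the longer runs of capitals. The stretch printed for Mcm3 marks only 1 of its 2 sites. The other, GCGGGAAA, starts before that stretch, and its remaining letters stand there in lower case. No match was found in the other Mcm7 promoter or in Mcm2. All 5 matched members held CCAAT on either strand, as did 37.4% of all promoters. TTTGAA was found in Mcm2 alone among them, and in 17.9% of all promoters. These matches describe letters, and no binding was measured.

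The libraries held 33960216 to 45830216 reads in AThi, 54512285 to 61341946 in ATlo and 44021141 to 45590508 in young HSCs. All 10 listed HSC markers were detected. DESeq2 called 3 of them (Procr, Mecom and Hlf) higher in AThi than in ATlo and 0 lower. Among all genes, 3.47% were called higher. The other listed HSC markers were not called. The B cell marker Ighm (immunoglobulin mu heavy chain) reached 20937 normalized counts in AThi O12, 7314 in ATlo O12 and 8395 in young D12, against at most 63.5 in the other 5 libraries. The 5 B cell markers with values, of 9 listed, summed to between 861 and 23877 normalized counts in AThi, 654 and 10117 in ATlo, and 711.6 and 10767 in young libraries. The alpha globin genes Hba-a1 and Hba-a2 and the beta globin gene Hbb-bs were highest in the same 3 libraries. The listed erythroid markers Epor, Klf1 and Alas2 were not. The beta globin gene Hbb-bt was highest in the library tagged 12 within each group. It had 618 normalized counts in AThi O12, 930 in ATlo O12 and 1604 in young D12. Its 1218 in young D11 lay above both old libraries tagged 12. The calls of the members and some counts over the lists are therefore also given without the 3 libraries tagged 12. The correlations, shares and per-kilobase levels are given with all libraries only. The part of these markers in the results was not tested. Multipotent progenitor markers summed to 2936 to 4121 in AThi, 4048 to 5202 in ATlo and 5425 to 7061 in young libraries, and none of the 3 with an adjusted p, of these 5 (Flt3, Cd48 and Cd34), was called between AThi and ATlo by DESeq2. T and NK cell markers with values (4 of 8 listed) summed to 2204 to 3257 in AThi, 1417 to 1703 in ATlo and 1223 to 1289 in young libraries. Of the 4, only Klrb1c was called higher in AThi than in ATlo. It had 2354, 2730 and 1284 normalized counts in AThi libraries O10, O11 and O12, against 859, 950 and 721 in ATlo. Nkg7 was lower in AThi but not called, with 243, 392 and 316 against 394, 457 and 533. The AThi and ATlo ranges of Trac and Cd4 overlapped. The part of either list in the results was likewise not tested.

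All 6 MCM genes were lower in AThi than in ATlo HSCs of the same old mice. The fall was 3.48-fold for Mcm5 and between 1.88-fold and 2.16-fold for the other 5. Every AThi library was below every ATlo library and below every young library for each of the 6 genes. Among all genes, 10.9% had every AThi library below every ATlo library, and 14.0% had every AThi library below every young library. The deposited DESeq2 test called all 6 lower in AThi than in ATlo at an adjusted p below 0.05, against 4.43% of the genes tested that were called lower. In bulk samples, fewer cells that express these genes and less MCM mRNA per cell cannot be told apart.

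Mcm5 and Mcm2 are the subunits on either side of the gate through which the ring opens on DNA. Mcm5 had 771, 872 and 1040 normalized counts in AThi libraries O10, O11 and O12, against 2916, 3214 and 3210 in the ATlo libraries of the same tags, and 2351 and 2561 in young D11 and D12. The 3 groups did not overlap: AThi was lowest, young was between, and ATlo was highest. The log2 fold change in AThi against ATlo was -1.80 (SE 0.16, DESeq2 adjusted p = 3.2e-27).

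Mcm2, which also binds histones and is phosphorylated by CDC7, had 2134, 2241 and 3036 normalized counts in AThi libraries O10, O11 and O12. It had 4241, 5669 and 5748 in ATlo, and 3852 and 5094 in young D11 and D12. The ATlo and young values overlapped, and both lay above all AThi values. The log2 fold change in AThi against ATlo was -1.08 (SE 0.19, DESeq2 adjusted p = 3.0e-06).

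Mcm3 is the subunit that, in budding yeast, contacts the loading machinery first. It had 3465, 2990 and 3673 normalized counts in AThi libraries O10, O11 and O12, against 5751, 7108 and 7347 in ATlo, and 6123 and 7008 in young D11 and D12. Both young values fell inside the ATlo range. The log2 fold change in AThi against ATlo was -0.996 (SE 0.15, DESeq2 adjusted p = 1.8e-09).

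Mcm4, Mcm6 and Mcm7 form a subcomplex that unwinds DNA on its own in the test tube, and Mcm4 carries a tail that CDC7 phosphorylates at activation. Mcm4 had 3607, 3103 and 3783 normalized counts in AThi libraries O10, O11 and O12, against 6308, 7871 and 7145 in ATlo, and 6368 and 7244 in young D11 and D12. As for Mcm3, the young values lay inside the ATlo range and above all AThi values. The log2 fold change in AThi against ATlo was -1.02 (SE 0.14, DESeq2 adjusted p = 4.1e-11). Its head-to-head neighbour Prkdc was not called, at -0.42 (SE 0.16, DESeq2 adjusted p = 0.095).

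Mcm6 had the highest values of the 6, with 4535, 5549 and 6706 normalized counts in AThi libraries O10, O11 and O12. It had 10481, 13093 and 12703 in ATlo, and 11624 and 11101 in young D11 and D12. The highest AThi library reached 64.0% of the lowest ATlo library, so the groups were well apart. The log2 fold change in AThi against ATlo was -1.11 (SE 0.16, DESeq2 adjusted p = 8.6e-10).

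Mcm7 was the least even member. It had 1312, 1354 and 2266 normalized counts in AThi libraries O10, O11 and O12, against 3111, 3412 and 2765 in ATlo, and 2705 and 3994 in young D11 and D12. AThi O12 stood close to ATlo O12, and the young values were far apart. The log2 fold change in AThi against ATlo was -0.91 (SE 0.24, DESeq2 adjusted p = 0.0037). The quasi-likelihood test of edgeR, run on recovered reads, did not call it, with an adjusted p of 0.11 and 0.10 with the mouse as a block, whereas DESeq2 with the mouse as a block gave 7.0e-05. The overlapping genes Ap4m1 (-0.10, SE 0.22, DESeq2 adjusted p = 0.88) and Cops6 (-0.31, SE 0.16, DESeq2 adjusted p = 0.24) were not called.

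**Figure D1:**
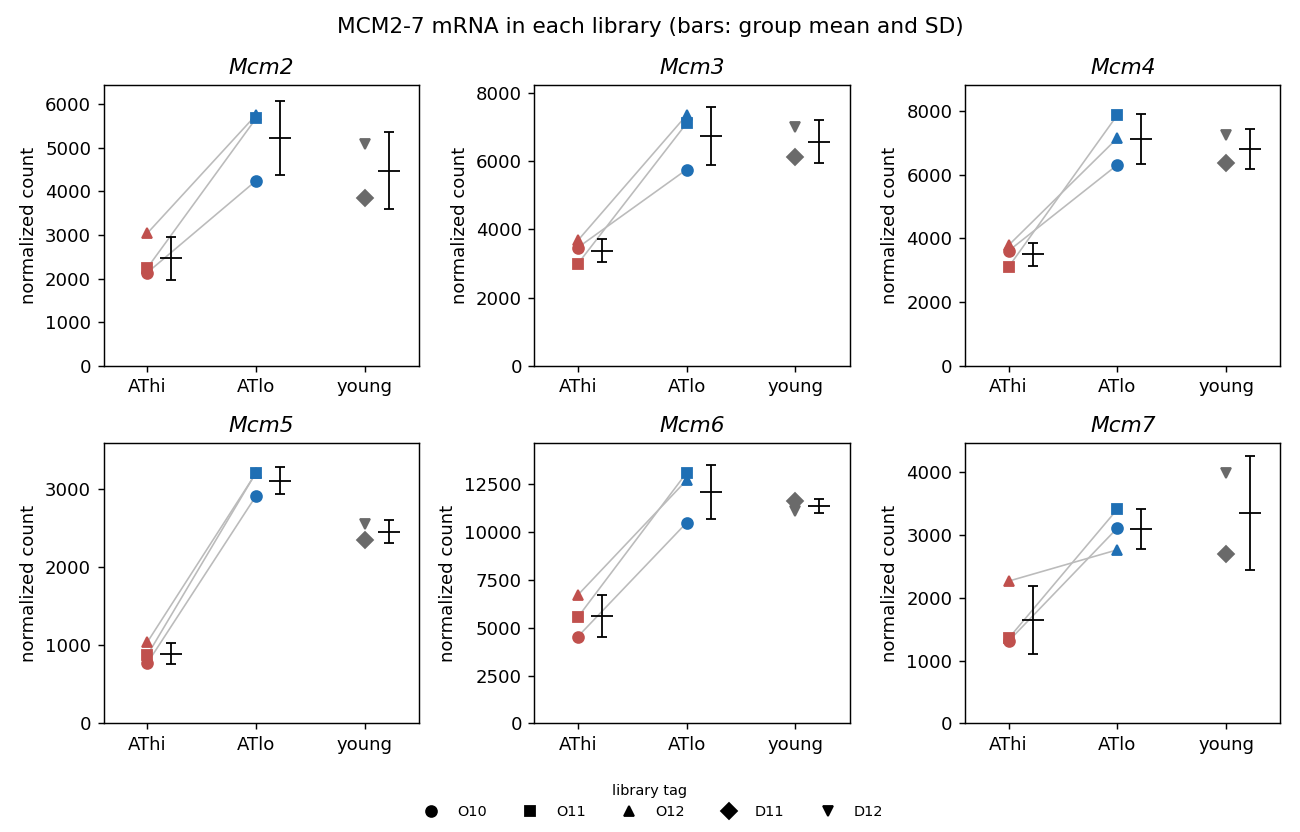
Normalized counts (y axis, linear from 0) of the 6 MCM genes in AThi, ATlo and young libraries; symbols mark the library tag, grey lines join the AThi and ATlo libraries of one old mouse, and black bars show the group mean and SD (n = 3, 3 and 2). In every panel all AThi points lie below all other points, and for Mcm7 the AThi point tagged O12 (2266) comes nearest to its ATlo partner (2765).

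The edgeR test called the other 5 members lower in AThi, at adjusted p of 0.0028 for Mcm5, 0.0079 for Mcm4, 0.010 for Mcm3, 0.011 for Mcm6 and 0.031 for Mcm2. It called 1.11% of all genes lower. Without the 3 libraries tagged 12, all 6 were called by DESeq2, with log2 fold changes between -0.996 for Mcm3 and -1.90 for Mcm5. That of Mcm7 was then -1.29 (SE 0.21, adjusted p = 1.7e-07).

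Within each mouse, all 6 genes were lower in the AThi library, in 18 of 18 gene and mouse pairs. Mcm5 gave log2 ratios of AThi over ATlo of -1.92, -1.88 and -1.63 in mice O10, O11 and O12 (mean -1.81 ± 0.16, SD, n = 3). Its AThi level was thus 26.5%, 27.1% and 32.4% of the ATlo level. Mcm2 gave -0.99, -1.34 and -0.92, and Mcm6 gave -1.21, -1.24 and -0.92 in the same order of mice. These 2 genes had ratios of similar size in every mouse.

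Mcm3 gave -0.73, -1.25 and -1.0 and Mcm4 gave -0.81, -1.34 and -0.92 in mice O10, O11 and O12. Mcm7 gave -1.25, -1.33 and -0.29 (mean -0.96 ± 0.58, SD, n = 3), and the SD of the other members' ratios lay between 0.16 and 0.28. In mouse O12 its AThi level was 81.9% of the ATlo level. Averaged over the 6 genes, the log2 ratio was -1.15 in mouse O10, -1.40 in O11 and -0.95 in O12.

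The decrease of Mcm5 was larger than that of each other member in each of the 3 mice. The difference from Mcm6 was the steadiest, with Mcm5 minus Mcm6 at -0.71, -0.64 and -0.70 on the log2 scale (mean -0.69 ± 0.04, SD, n = 3). Against Mcm2, Mcm3, Mcm4 and Mcm7 the mean difference had a size of 0.73, 0.82, 0.79 and 0.85 on the same scale. None of the 10 pairs among the other 5 members had the same sign in all 3 mice. These are differences between genes in the same libraries and were not given a test.

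**Figure D2:**
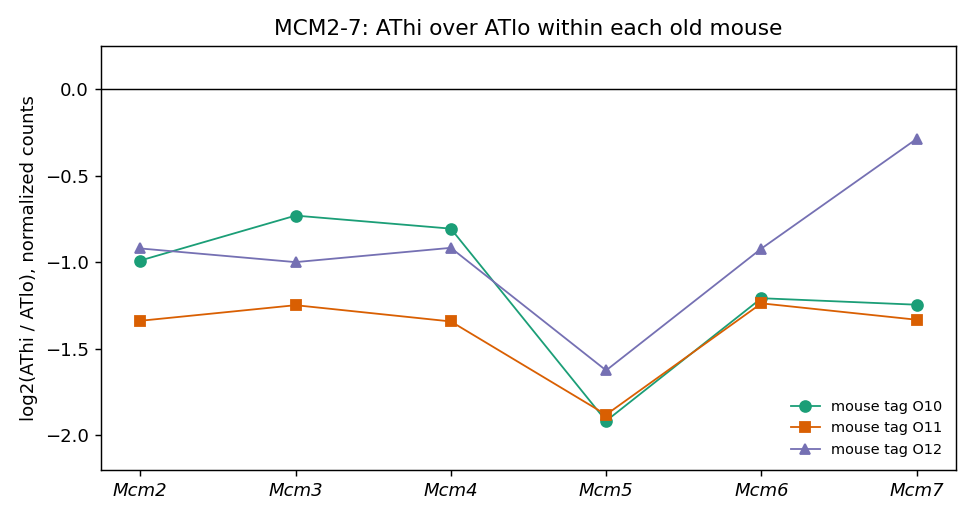
Log2 ratio of the AThi over the ATlo normalized count (y axis) for each MCM gene (x axis), with one line for each old mouse. All points lie below 0, the lines meet lowest at Mcm5 (-1.63 to -1.92), and they are farthest apart at Mcm7 (-0.29 to -1.33).

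Compared between genes as levels per kilobase of the longest annotated transcript, Mcm6 was highest and Mcm5 lowest in each group. In AThi the order of mean levels per kilobase was Mcm6 (1285 ± 249 SD), Mcm3 (984 ± 102), Mcm4 (975 ± 98.4), Mcm2 (707 ± 141), Mcm7 (555 ± 182) and Mcm5 (265 ± 40.1). In this group all neighbours in the order overlapped in range except Mcm7 and Mcm5. In ATlo the levels per kilobase were 2777 ± 323 for Mcm6, 1981 ± 218 for Mcm4, 1963 ± 251 for Mcm3, 1494 ± 243 for Mcm2, 1045 ± 109 for Mcm7 and 921 ± 50.6 for Mcm5. Here Mcm4 and Mcm3 overlapped, as did Mcm7 and Mcm5.

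In young HSCs the levels per kilobase were 2609 ± 85.0 for Mcm6, 1914 ± 182 for Mcm3, 1896 ± 173 for Mcm4, 1280 ± 251 for Mcm2, 1131 ± 308 for Mcm7 and 726 ± 43.9 for Mcm5. Overlaps were between Mcm3 and Mcm4 and between Mcm2 and Mcm7. The length used bears on this order: per kilobase of the mean transcript length, Mcm7 in ATlo was at 2900 ± 303 and Mcm5 at 1558 ± 85.7, far apart.

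As a share of the summed per-kilobase level of the 6 genes, Mcm5 made up 5.26%, 5.91% and 5.49% in AThi libraries O10, O11 and O12. It made up 9.62%, 8.65% and 8.98% in ATlo, and 7.78% and 7.44% in young D11 and D12. The 3 groups did not overlap in this share. For each of the other 5 members the AThi and ATlo ranges overlapped; Mcm6, for example, made up 24.0% to 29.2% in AThi, 26.8% to 27.6% in ATlo and 25.1% to 29.9% in young HSCs.

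**Figure D3:**
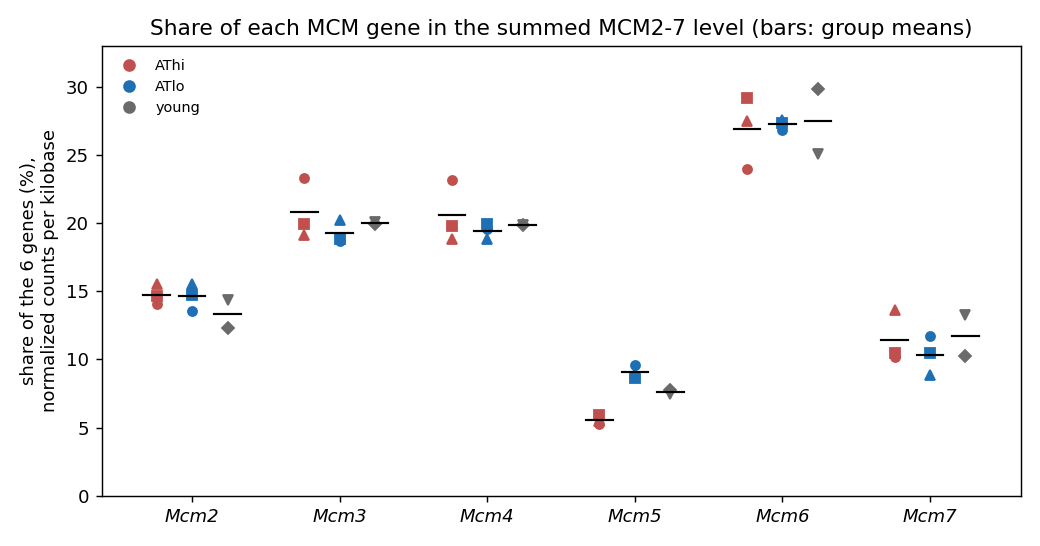
Share of each MCM gene in the summed MCM2-7 level, in percent of normalized counts per kilobase of the longest transcript (y axis); each point is a library, its shape the library tag as in the plot of counts by library, and black bars are group means. Mcm5 is the gene whose 3 groups separate, at 5.26% to 5.91% in AThi, 8.65% to 9.62% in ATlo and 7.44% to 7.78% in young libraries.

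Against young HSCs, the 6 genes were also lower in AThi, by 1.81-fold (Mcm2) to 2.74-fold (Mcm5). DESeq2 called all 6 at an adjusted p below 0.05, against 1.91% of genes called lower. The log2 fold changes were -1.46 for Mcm5 (SE 0.17, adjusted p = 2.0e-14), -1.03 for Mcm7 (SE 0.27, adjusted p = 0.0045) and -1.02 for Mcm6 (SE 0.18, adjusted p = 1.2e-06). They were -0.96 for Mcm4 (SE 0.15, adjusted p = 6.9e-08), -0.96 for Mcm3 (SE 0.16, adjusted p = 4.6e-07) and -0.86 for Mcm2 (SE 0.22, adjusted p = 0.0034).

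Not every fit called Mcm2 and Mcm7 lower in AThi than in young HSCs. The edgeR test called the other 4, at adjusted p of 0.0044 to 0.022, against 0.362% of genes called lower. It gave 0.11 for Mcm2 and 0.12 for Mcm7. A fit without young D12 leaves 1 young library, which is then assumed to vary as the other groups do. In that fit DESeq2 also called 4, and Mcm2 was at -0.64 (adjusted p = 0.25) and Mcm7 at -0.72 (adjusted p = 0.32). Without all 3 libraries tagged 12, which also leaves 1 young library and the same assumption, each of the 6 was called, with the highest adjusted p at 0.042 for Mcm2. The AThi libraries enter both this comparison and the one with ATlo.

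No MCM gene was called between ATlo HSCs of old mice and young HSCs. DESeq2 called 0 of 6, edgeR called 0, and 1 of 6 (Mcm5) had an unadjusted p below 0.05 with DESeq2 and 0 with edgeR. Among all genes, DESeq2 called 2.37% higher and 1.98% lower in ATlo. Mcm5 was 0.34 higher on the log2 scale (95% interval 0.0064 to 0.68, unadjusted p = 0.046, adjusted p = 0.32), and its 3 ATlo libraries were all above both young libraries, as in 15.7% of genes.

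The intervals of the other 5 members bound the difference that these libraries would allow. They were -0.20 to 0.65 for Mcm2, -0.28 to 0.35 for Mcm3, -0.24 to 0.36 for Mcm4, -0.26 to 0.44 for Mcm6 and -0.63 to 0.41 for Mcm7, all as log2 fold changes in ATlo against young. These widths include 0 in each case and do not show that ATlo and young levels are alike.

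**Figure D4:**
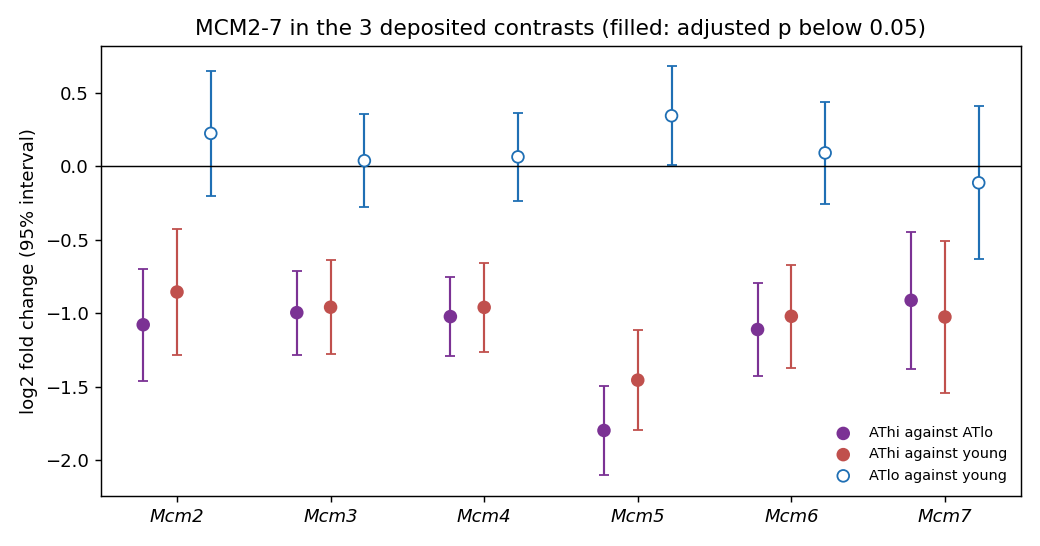
Log2 fold changes (y axis) of the 6 MCM genes in the 3 deposited DESeq2 contrasts, with 95% intervals; filled points have an adjusted p below 0.05. The 6 points for AThi against ATlo and the 6 for AThi against young are filled and lie between -0.86 and -1.80, and the 6 for ATlo against young are open and lie between -0.11 and 0.34.

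Across the 8 libraries the log2 values of the 6 genes followed each other. Pearson's r was 0.895 for the least similar pair (Mcm5 and Mcm7), 0.994 for the most similar (Mcm3 and Mcm4), with a median of 0.958 over 15 pairs. These are descriptions, since the points share libraries and group differences. Among 13605 other genes whose base mean reached 100, the 10 whose profile was most like the mean of the 6 included E2f1 (r = 0.992), Brca1, Pola1, Gm6682, Plk4, Ncapg, Brip1, Rnaseh2b and Pold2 (r = 0.979). Over the 6 old libraries alone, 3 of these 10 were again among the first 10.

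Of 9 loading genes, 2 were called lower in AThi than in ATlo (DESeq2, 4.43% of all genes) and 0 higher. The median log2 fold change was -0.50 over the list, -1.05 over the 6 MCM genes and 0.02 over all genes tested. Gmnn, which encodes geminin, the inhibitor of CDT1, averaged 394 ± 197 normalized counts in AThi and 1088 ± 152 in ATlo (mean ± SD of 3 libraries each; log2 fold change -1.47, SE 0.33, adjusted p = 3.5e-04). Cdt1, the loader it inhibits, averaged 707 ± 118 in AThi and 1667 ± 707 in ATlo (-1.24, SE 0.28, adjusted p = 5.7e-04). Orc2 (-0.48, adjusted p = 0.098) and Orc1 (-0.74, adjusted p = 0.11), subunits of the origin recognition complex, were not called in that comparison. Neither Gmnn nor Cdt1 was called by edgeR, at adjusted p of 0.069 and 0.075, but with the mouse as a block edgeR called Cdt1 (0.047). DESeq2 with the block also called Cdc6, a loader (adjusted p = 0.026, against 0.13 without the block). The number called was 4 without AThi O12.

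Of 13 genes that activate the loaded helicase, 6 were called lower in AThi than in ATlo (DESeq2, 4.43% of all genes) and 0 higher. The median was -0.91. Cdc7, the kinase that phosphorylates the ring, averaged 217 ± 19.7 normalized counts in AThi and 738 ± 87.6 in ATlo (-1.77, SE 0.22, adjusted p = 4.7e-13). Ticrr, which with Topbp1 helps to bring CDC45 to origins, averaged 818 ± 91.0 in AThi and 2248 ± 155 in ATlo (-1.46, SE 0.19, adjusted p = 8.7e-12). Topbp1 averaged 5005 ± 416 in AThi and 9423 ± 874 in ATlo (-0.91, SE 0.13, adjusted p = 3.0e-09). Cdc45, a subunit of the active helicase, averaged 285 ± 21.1 in AThi and 905 ± 322 in ATlo (-1.67, SE 0.30, adjusted p = 3.1e-06). The other called genes were Gins1 (-2.05) and Mcm10 (-1.53). The edgeR test called 4 of the 13 lower, against 1.11% of all genes. With the mouse as a block edgeR also called 4, with Cdc45 lost (adjusted p = 0.052, against 0.031 without the block) and Mcm10 gained (0.04997, against 0.097). DESeq2 with the block also called Dbf4, the activator of CDC7 (adjusted p = 0.047, against 0.094 without).

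Of 8 partners of the helicase at the fork, 6 were called lower in AThi than in ATlo (DESeq2, 4.43% of all genes) and 0 higher. The median was -1.24. The edgeR test called 5 lower, against 1.11% of all genes. With the mouse as a block edgeR called 4, and Pole2, a subunit of DNA polymerase epsilon, was lost (adjusted p = 0.067, against 0.035 without the block). Pole, the catalytic subunit of DNA polymerase epsilon, averaged 1802 ± 254 normalized counts in AThi and 4448 ± 476 in ATlo (-1.30, SE 0.16, adjusted p = 6.6e-13). Tipin, of the fork protection complex, averaged 1013 ± 125 in AThi and 2342 ± 181 in ATlo (-1.21, SE 0.16, adjusted p = 3.6e-12). Clspn, which carries checkpoint signals from the fork, averaged 804 ± 164 in AThi and 2628 ± 667 in ATlo (-1.71, SE 0.22, adjusted p = 9.4e-12). Wdhd1, which links the helicase to DNA polymerase alpha, averaged 982 ± 187 in AThi and 2367 ± 67.1 in ATlo (-1.27, SE 0.17, adjusted p = 1.1e-10).

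Of 6 genes that take the helicase off chromatin, 1 was called lower in AThi than in ATlo by DESeq2 and 0 higher. Among all genes, 4.43% were called lower and 3.47% higher, so a count this small does not set the list apart. The gene called was Lrr1, the substrate receptor of the ligase that marks the terminated helicase (-1.87, SE 0.63, adjusted p = 0.042). It had 119, 23.1 and 18.8 normalized counts in AThi libraries O10, O11 and O12, against 200, 186 and 194 in ATlo. AThi O10 stood apart from the other AThi libraries. Lrr1 was not called by edgeR (adjusted p = 0.21), nor without the 3 libraries tagged 12, nor in 7 of 8 fits that left out 1 library, the exception being the fit without AThi O10. DESeq2 with the mouse as a block called it (-2.38, adjusted p = 0.0055), and edgeR with the block did not (adjusted p = 0.15). Vcp, the unfoldase that pulls the ring apart (-0.18, adjusted p = 0.37), and its cofactors Faf1 (-0.36, adjusted p = 0.22) and Ubxn7 (0.24, adjusted p = 0.51) were not called.

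Apart from Mcm10, given above with the activation genes, 5 genes outside the ring have MCM in their symbol. None of these 5 was called in AThi against ATlo by DESeq2 or by edgeR, with 2 at an unadjusted DESeq2 p below 0.05. Among all genes, DESeq2 called 4.43% lower and 3.47% higher, and edgeR called 1.11% lower and 0.301% higher. At these shares, 0 of 5 does not set these genes apart from genes in general. Mcm8, which pairs with Mcm9 in DNA repair, averaged 443 ± 118 normalized counts in AThi and 727 ± 39.0 in ATlo (-0.72, SE 0.34, adjusted p = 0.22). Mcm9 averaged 2268 ± 73.1 in AThi and 2224 ± 221 in ATlo (0.03, SE 0.13, adjusted p = 0.95). Mcmbp, the MCM-binding protein, was at -0.37 (adjusted p = 0.20), Mcm3ap at -0.19 (adjusted p = 0.74) and Mcmdc2 at 0.16 (adjusted p = 0.87).

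**Figure D5:**
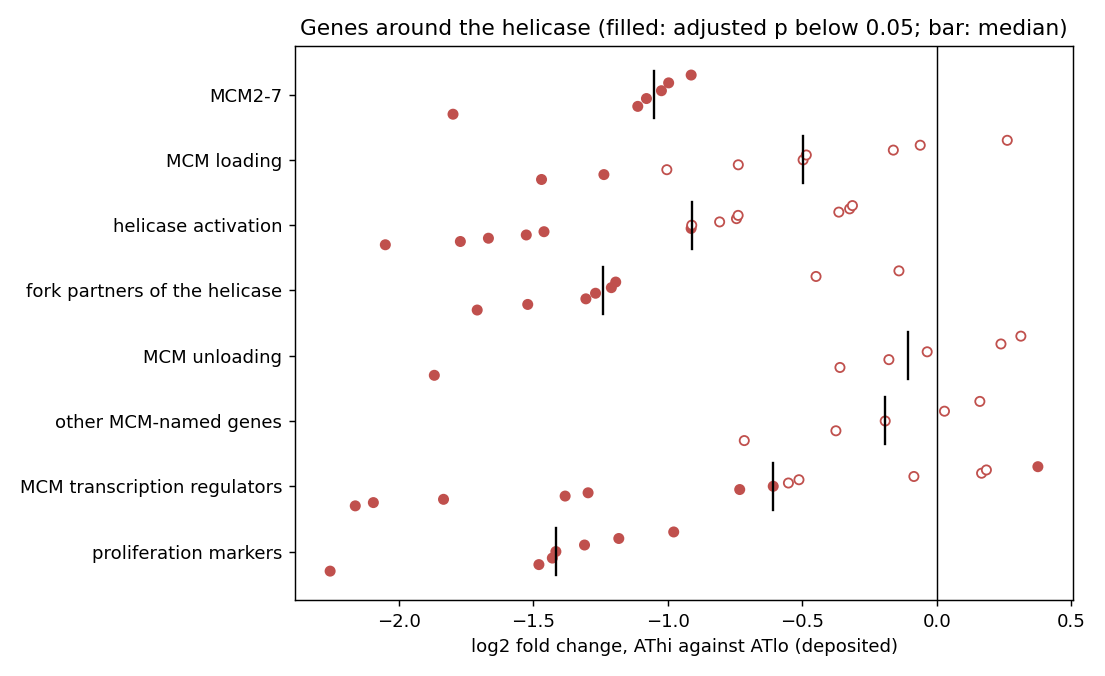
Log2 fold change in AThi against ATlo (x axis) of each gene of the MCM2-7 set and of 7 lists around it (rows); filled points have a DESeq2 adjusted p below 0.05 and black bars are list medians. The MCM2-7, fork partner and proliferation marker rows have medians of -1.05, -1.24 and -1.42, and the rows for MCM unloading and other MCM-named genes (Mcm10 is in the activation row) have medians of -0.11 and -0.19.

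Of 13 measured regulators of MCM transcription, DESeq2 called 7 lower and 1 higher in AThi than in ATlo. Among all genes, 4.43% were called lower and 3.47% higher. The edgeR test called 3 lower, against 1.11% of all genes, and called 4 with the mouse as a block. The DESeq2 count of 8 fell to 5 without AThi O11, ATlo O10 or all 3 libraries tagged 12, and to 4 without ATlo O11 or ATlo O12. E2f1, an activator of MCM genes, averaged 238 ± 46.9 normalized counts in AThi and 1068 ± 155 in ATlo (-2.16, SE 0.23, adjusted p = 1.3e-17). Mybl2, which acts with the MuvB complex later in the cycle, averaged 102 ± 22.2 in AThi and 437 ± 34.7 in ATlo (-2.09, SE 0.34, adjusted p = 8.6e-08). E2f8, a repressor (-1.38, adjusted p = 2.1e-07), and E2f2, an activator (-1.83, adjusted p = 0.0030), were also lower by DESeq2, and E2f2 was not called by edgeR (adjusted p = 0.11) except with the mouse as a block (0.044). DESeq2 with the block also called E2f3, an activator (adjusted p = 0.046, against 0.12 without), and E2f4, a repressor (0.033, against 0.067), and lost Lin9 of the MuvB complex (0.051, against 0.045). The gene called higher was Rbl2, which encodes the pocket protein p130 that represses E2F targets in resting cells (0.38, SE 0.13, adjusted p = 0.039; 3.47% of all genes were called higher), and edgeR did not call it (adjusted p = 0.15).

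All 7 proliferation markers were called lower in AThi than in ATlo by DESeq2 and by edgeR, against 4.43% and 1.11% of all genes. Pclaf, a PCNA-binding factor, averaged 486 ± 47.4 normalized counts in AThi and 2320 ± 94.3 in ATlo (-2.25, SE 0.15, adjusted p = 1.9e-45). Top2a, which untangles replicated DNA, was at -1.31 (adjusted p = 1.6e-23), Ccna2, the S phase cyclin, at -1.43 (adjusted p = 5.2e-14) and Mki67, a marker of cycling cells, at -1.42 (adjusted p = 2.1e-13). The medians were -1.42 for these markers and -1.05 for MCM2-7.

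The proliferation markers and the MCM genes gave different counts in ATlo against young. In that comparison 5 of the 7 markers were called higher in ATlo by DESeq2 and 1 (Mki67) by edgeR, against 2.37% and 0.467% of all genes, while 0 of the 6 MCM genes were called. Mki67 averaged 43599 ± 3799 normalized counts in ATlo (n = 3) and 19988 ± 4474 in young HSCs (n = 2), a log2 fold change of 1.13 (SE 0.19, adjusted p = 1.1e-06). Without ATlo O11, 3 of the 7 markers were called. Without young D11, 1 was called, in a fit with 1 young library that is assumed to vary as the other groups do. No loading, activation, fork, unloading or regulator gene of the lists was called in ATlo against young by either tool, and 5 of these 49 genes had an unadjusted p below 0.05 with DESeq2 and 3 with edgeR.

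In AThi against young, DESeq2 called lower 3 of 9 loading genes, 5 of 13 activation genes, 5 of 8 fork partners, 1 of 6 unloading genes and 5 of 7 proliferation markers, against 1.91% of all genes. It called 5 regulators lower and 1 higher (Rb1, 0.59, adjusted p = 0.0026), against 3.13% of all genes called higher. Over these lists and the other MCM-named genes, 25 genes were called in all. This count was 11 with edgeR, against 1.21% of all genes called in either direction. In the fits that leave 1 young library, assumed to vary as the other groups do, it was 18 without young D11, 12 without young D12 and 9 without the 3 libraries tagged 12. The lists did not move alike: activation genes fell to 2 without young D11, loading genes to 1 without AThi O11 or young D11 and to 0 without young D12, regulators to 1 without young D12, the unloading gene was lost without either young library, and proliferation markers to 3 without AThi O11 or young D12. Orc1 and Orc2, not called against ATlo, were at -1.09 (adjusted p = 0.024) and -0.69 (adjusted p = 0.030) against young.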

How the data were processed

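RNA came from about 10000 HSCs per sample with an RNA integrity number over 9.0, collected over 2 sort days, per the labels' protocols; no source used here says which library belongs to which day. FastQC, MultiQC, STAR, featureCounts and DESeq2 with build GRCm38 are named in the submitters' processing notes; no versions are stated there.

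The authors deposited, per gene, a normalized read signal for each library (called normalized count here), and for each of 3 contrasts a log2 fold change, its error, a Wald score and raw and adjusted p-values. Per the file headers the columns carry a group and a tag, and were matched to groups by these. The 3 contrasts were additive and so came from 1 fit of 8 libraries. A gene was called at the deposited adjusted p below 0.05. An authors' deposited table of upstream regulators holds an activation score, a log2 ratio and a p-value of overlap.

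Columns divided by what 1 read is worth gave whole reads (within 0.01) for 100% of values. Refits used edgeR 4.0.16 (quasi-likelihood) and DESeq2 1.42.0, both in R 4.3.3, after a test on simulated data. The members had from 527 reads (Mcm5, AThi O10) to 16492 (Mcm6, ATlo O11); depths cover counting error only. Likeness used log2(normalized count + 1). Lengths and positions came from GENCODE (GRCm38).

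Old libraries of one mouse are paired in the labels and share a tag in the headers; deviations from group means correlated at 0.209, 0.164 and 0.373 for same-tag pairs and -0.232 to 0.030 for others, over 13611 genes. No 2 libraries of a group were duplicates (chi-square per degree of freedom, 50.6 to 105).

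The members and the lists were chosen with earlier results of these data known, so no p was adjusted over them alone and no set test was run. Named genes were all members, up to 4 per list by adjusted p in AThi against ATlo, the 10 genes of most similar profile (1 of them is not reported here), all other MCM-named rows, and genes that overlap a member or start within 1000 bases upstream on the other strand. Further genes were named after their values were seen (Gins1, Mcm10, Rbl2, Rb1, Cdc6, Dbf4, Pole2, E2f3, E2f4, Lin9, Ighm, Hba-a1, Hba-a2, Hbb-bs, Hbb-bt, Epor, Klf1, Alas2, Flt3, Cd48, Cd34, Klrb1c, Nkg7, Trac, Cd4, Procr, Mecom, Hlf). One listed regulator, Lin54, and several B cell and erythroid markers were not analysed here.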

Additional observations from a re-analysis of the deposited data

How the results depend on the processing

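Across the alternatives run, all 6 members kept their direction in AThi against ATlo (102 recomputed values from 17 alternatives) and in AThi against young (90 values from 15). In AThi against ATlo 98 values kept the call; the other 4 are Mcm7 under the edgeR fits (adjusted p between 0.10 and 0.11). Leaving out 1 library at a time gave 6 of 6 members called throughout. In AThi against young 82 values kept the call and 8 lost it (Mcm2 and Mcm7 under edgeR and without young D12), and the members called ranged from 4 to 6 without 1 library. In ATlo against young 0 members were called under any alternative, and small differences changed sign: without 1 library Mcm3 ranged from -0.051 to 0.14, Mcm4 from -0.021 to 0.16 and Mcm7 from -0.36 to 0.20, and Mcm7 was 0.28 without the 3 libraries tagged 12. The cause was not tested. Fits without a young library or without the libraries tagged 12 leave 1 young library, assumed to vary as the other groups do.

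With the mouse as a replicate block in AThi against ATlo, DESeq2 called 6 members and 1951 genes and edgeR 5 members and 311 genes; the block changed no call of a member relative to the same tool without it, and the list genes whose call it changed are given with their lists. The deposited test called 1414 genes in AThi against ATlo, 961 in AThi against young and 811 in ATlo against young. These were 280, 240 and 130 with edgeR with or without a filter on low counts, 286, 239 and 130 with edgeR on DESeq2 size factors, and 793, 582 and 482 without the libraries tagged 12. Without 1 library they were 932 to 1422, 585 to 1093 and 362 to 894. Over the 7 lists around the helicase the called genes were 30, 25 and 5 in these contrasts, and 19, 11 and 1 under all 3 edgeR fits without the block. They were 25 to 30, 12 to 25 and 1 to 5 without 1 library, with 9 in AThi against young without the libraries tagged 12. Per kilobase levels moved with the transcript length, for Mcm7 in ATlo to 2900 from the mean length, against 1045 from the longest. The scaling alternatives moved the median of all genes by at most 0.0054 on the log2 scale. AThi and ATlo had 3 libraries and young 2, so differences of the size seen in ATlo against young could not be resolved.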

Other observations

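In the authors' deposited table of upstream regulators for AThi against ATlo, 99 of 726 regulators listed at least 1 MCM gene among their targets, and at most 4 of the 6 were listed by any. The authors' deposited table listed Mcm4 and Mcm5 under 52 regulators each, Mcm6 under 48 and Mcm2 under 41. Mcm3 and Mcm7 were listed as targets of 0 regulators in the authors' deposited table, although they appear there as regulators themselves, with log2 ratios of -0.996 and -0.913. Of 368 distinct target symbols of the authors' deposited table that matched a gene measured here, 365 had a log2 fold change of size 1 or more, which Mcm3 and Mcm7 did not reach.

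E2F1 had an activation score of -3.991 (p-value of overlap 1.38e-34) in the authors' deposited table and listed Mcm2, Mcm4, Mcm5 and Mcm6. E2F4 had a score of 1.709 (p-value of overlap 3.56e-56) in the authors' deposited table and listed Mcm4, Mcm5 and Mcm6. These scores and p-values rest on the same AThi against ATlo data, with MCM genes among the targets. They are therefore no separate evidence on the MCM genes, and control by E2F proteins was not tested.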
